A study of Mus musculus with 2 samples.

Results

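miR-22 was followed through its 2 mature strands, miR-22-3p and miR-22-5p, which are cut from opposite arms of 1 hairpin transcript. The members were the rows named mmu-miR-22-3p and mmu-miR-22-5p (mmu for mouse, left out from here on), and both were found in both libraries, so that 2 of the 1477 miRNA names counted in the study are described here. The study comprised 2 replicate libraries of 1 condition and no other group. In both, cultured mouse skin keratinocytes grown in low-calcium medium carried an exogenously expressed fusion of desmoplakin (Dsp) with the biotin ligase BirA and were given biotin. BirA tags proteins near the fusion, and desmoplakin belongs to the plaque of the desmosome, the junction that holds epithelial cells together. RNA bound to biotin-tagged proteins was recovered on streptavidin beads after RNase treatment, with a ligation step that can join a miRNA to its target (CLEAR-CLIP), and the question behind the experiment was what Argonaute proteins do at that plaque. No input or unlabelled library was analysed here, so a level is what was recovered, not an enrichment over the rest of the cell. The labels do not say whether the replicates came from separate cultures, so the spread between them may be technical.

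A miRNA is a short RNA that an Argonaute protein carries and that guides it to messenger RNAs, mainly through the seed, bases 2 to 8 of the strand. Of the duplex cut from a hairpin, usually one strand is kept as the guide and the other is discarded. miR-22 is made from the long non-coding host transcript Mir22hg, is conserved among vertebrates, and is known in skin for its part in hair follicle cycling and keratinocyte differentiation. miR-22-3p is the strand usually studied as the guide.

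The sequences are shown with the seed in capitals for each strand, because pairing with targets runs mainly through it, and with both strands in capitals for the hairpin, because the contrast between the arms is the main pattern in the counts. All are from RefSeq on GRCm38.p6, in which the Mir22 gene (gene ID 387141) lies on the plus strand at chr11:75463716-75463810.
miR-22-3p: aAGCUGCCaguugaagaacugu
miR-22-5p: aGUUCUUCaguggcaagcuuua
Mir22 hairpin: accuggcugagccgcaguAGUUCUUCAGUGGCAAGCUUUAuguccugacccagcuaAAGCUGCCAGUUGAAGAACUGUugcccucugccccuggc

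The 5p strand occupies bases 19 to 40 of the 95-base hairpin (chr11:75463734-75463755) and the 3p strand bases 57 to 78 (chr11:75463772-75463793). Both strands are 22 bases long and begin with A. The 3p strand has 10 G or C bases, 5 of them in the seed, and the 5p strand has 9, of which 3 are in the seed. In the minimum free energy structure predicted by RNAfold (-41.9 kcal/mol), 19 bases of each strand were paired with the other strand, and all 7 seed bases of each were among them. An mRNA site that pairs with the whole seed would read GGCAGCU for miR-22-3p and GAAGAAC for miR-22-5p. Target sites were not analysed here.

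The gene lies inside the span of Mir22hg (chr11:75461539-75466690), a long non-coding RNA gene. The gene table used gives no exons, so the place of the hairpin within the host's exons and introns is not stated. The next genes outward from the host are the protein-coding Wdr81 on the side of lower coordinates and Tlcd2 on the other, the latter 1333 bases away. No other miRNA gene was closer than Mir3971, 87618 bases away. Mir132 and Mir212 lay 289968 and 290237 bases away on the same chromosome. miR-3971 had 10 counts in replicate 1 and 0 in replicate 2. miR-132-3p, the more abundant strand of Mir132, had 56.5 ± 14.4 CPM (SD, n = 2). CPM are counts per 1000000 miRNA counts of a library.

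The libraries held 3776893 miRNA counts in replicate 1 and 4122955 in replicate 2, and an unlisted name may thus have had up to 3 counts, or 0.794 CPM in the first and 0.728 CPM in the second. The counts were treated as reads without molecular identifiers, and all intervals, limits and p-values on them cover counting error only. The libraries were further apart than sampling of reads allows (chi-square 60.6 per degree of freedom) and were treated as separate samples. The labelled cell type was checked on 7 epithelial miRNAs, all found in both libraries, which took 10.6% of the counts in each. The blood, mesenchymal, muscle and neural lists summed to between 6.09 and 164.2 CPM. The endothelial list was the highest of the other cell types, with 515.5 CPM in replicate 1 and 426.4 CPM in replicate 2, and both of its markers, miR-126a-3p and miR-126a-5p, were found in both libraries. The part of other cells in the level of miR-22 was not tested. The mesenchymal list summed to 24.9 CPM in the first library and 101.1 CPM in the second. Within it, miR-214-3p had 6.88 and 88.3 CPM. miR-199a-3p, miR-143-3p and miR-145a-5p were lower in the second library, and miR-199a-5p had 0 and 6 counts.

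miR-22-3p was an abundant strand with nearly the same level in both libraries. It had 12872 counts in replicate 1 and 13912 in replicate 2. These counts were 3408 CPM (Wilson 95% interval 3350 to 3467) and 3374 CPM (3319 to 3431), or 0.341% and 0.337% of all miRNA counts. The mean was 3391 ± 23.9 CPM (SD, n = 2), a coefficient of variation of 0.705%. It stood at place 51 in both libraries, and 96.5% of the 1477 names were lower in each.

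miR-22-5p was far scarcer, but well above the limit of detection. It had 158 counts in replicate 1 and 189 in replicate 2. These were 41.8 CPM (Wilson 95% interval 35.8 to 48.9) and 45.8 CPM (39.8 to 52.9), with a mean of 43.8 ± 2.83 CPM (SD, n = 2). The level was 52.7 times the limit for an unlisted name in replicate 1 and 63.0 times in replicate 2. It stood at place 307 in replicate 1, at place 298 in replicate 2 and at place 301 by the mean. Its intervals in the libraries overlapped, as did those of the 3p strand.

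**Figure D1:**
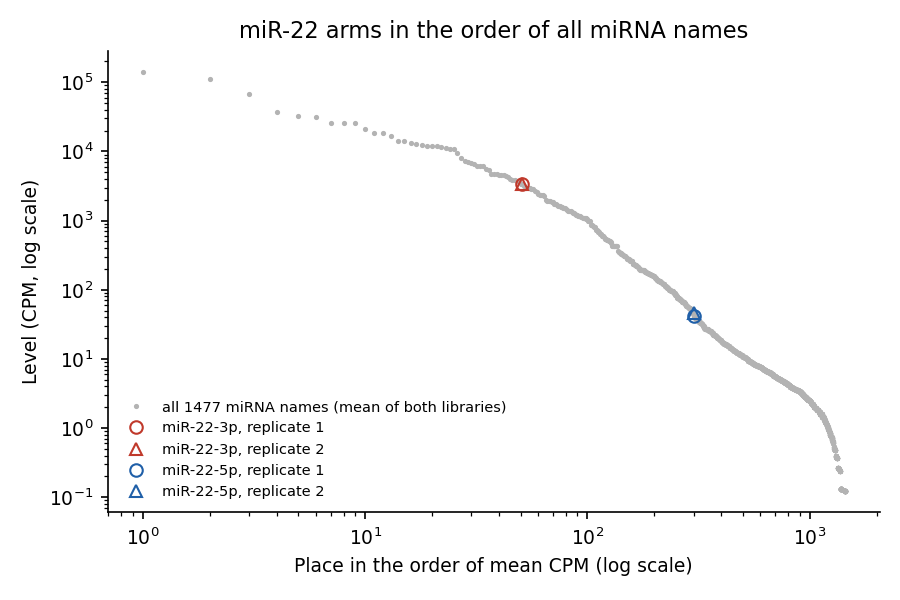
The level of each miRNA name in CPM (vertical, log scale) is plotted against its place in the order of mean CPM (horizontal, log scale), with grey points for the mean of both libraries and open symbols for the miR-22 strands in each library. miR-22-3p sits at place 51 and miR-22-5p at place 301, and the symbols of replicate 1 (circles) and replicate 2 (triangles) lie on each other or nearly so.

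The 3p arm therefore gave nearly all counts of the hairpin. In replicate 1 it held 98.8% of 13030 miR-22 counts (Wilson 95% interval 98.6% to 99.0%), and the 5p arm held 1.21% (1.04% to 1.42%). In replicate 2 it held 98.7% of 14101 counts (98.5% to 98.8%), and the 5p arm held 1.34% (1.16% to 1.54%). The mean 3p share was 98.7% ± 0.0903 (SD, n = 2). For each 5p count there were 81.5 counts of the 3p strand in replicate 1 and 73.6 in replicate 2.

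Reads of the strands differ in how well they ligate and amplify, so this is a ratio of reads and not of molecules. The exact two-sided binomial test against an even split of 50% gave a log10 p of -3553 in replicate 1 and -3811 in replicate 2. Such a call was common: it was made for 97.6% of hairpins in replicate 1 and for 97.0% in replicate 2. These were the 164 hairpins with both arms listed under the same hairpin name and at least 100 counts in both libraries. Strands whose other arm carries a locus number in its name, such as miR-16-5p and miR-24-3p, were thus left out. The 3p arm was called the higher arm in 37.2% of the hairpins in replicate 1 and 34.1% in replicate 2.

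Among these 164 hairpins, the 3p arm was the higher by the mean in 59, and miR-22 had the place 23 from the highest 3p share. The median 5p share of these 59 hairpins was 4.37%, and 36 of them had a larger 5p share than the 1.28% of miR-22. The hairpins next above it were miR-152 with a 3p share of 99.0% ± 0.557, miR-466e with 99.1% ± 0.522 and miR-221 with 99.2% ± 0.355 (SD, n = 2). The hairpins next below were miR-19a with 98.7% ± 0.767, miR-210 with 97.9% ± 0.341 and miR-378a with 97.9% ± 0.491. The range of miR-22 over the libraries, 98.66% to 98.79%, lay within those of miR-152 (98.58% to 99.36%) and miR-19a (98.13% to 99.22%). The range of miR-466e began at 98.78%, just below the upper end of that of miR-22, and the ranges of miR-221, miR-210 and miR-378a did not overlap it.

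The arm share of miR-22 moved little between the libraries. It was 0.128 percentage points lower in replicate 2, but a share this close to 100% has little room to move in points. The ratio of 3p to 5p counts has no such ceiling, and its log2 change from replicate 1 to replicate 2 was -0.15. Of the 150 hairpins with counts of both arms in both libraries, 18 had a smaller change in size, and the median size was 0.69. The 6 hairpins next in order, at like shares, had changes of 0.35 to 1.35 in size. No interval was computed for these changes, and a change is less certain where the lower arm has few counts. In replicates 1 and 2 the 5p counts were 158 and 189 for miR-22. They were lower for miR-466e (26 and 9), miR-152 (34 and 20), miR-221 (36 and 80) and miR-19a (121 and 52). For miR-210 they were 235 and 197, and for miR-378a 172 and 274. The exact Fisher test of arm by library did not pass the threshold for miR-22 (adjusted p = 0.408, Benjamini-Hochberg over the 164 hairpins). It passed for 68.3% of the hairpins, among them all 6 of the hairpins named above as next in order, with adjusted p-values from 1.99e-07 for miR-19a to 0.0249 for miR-466e. This test compares 2 libraries, not conditions.

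**Figure D2:**
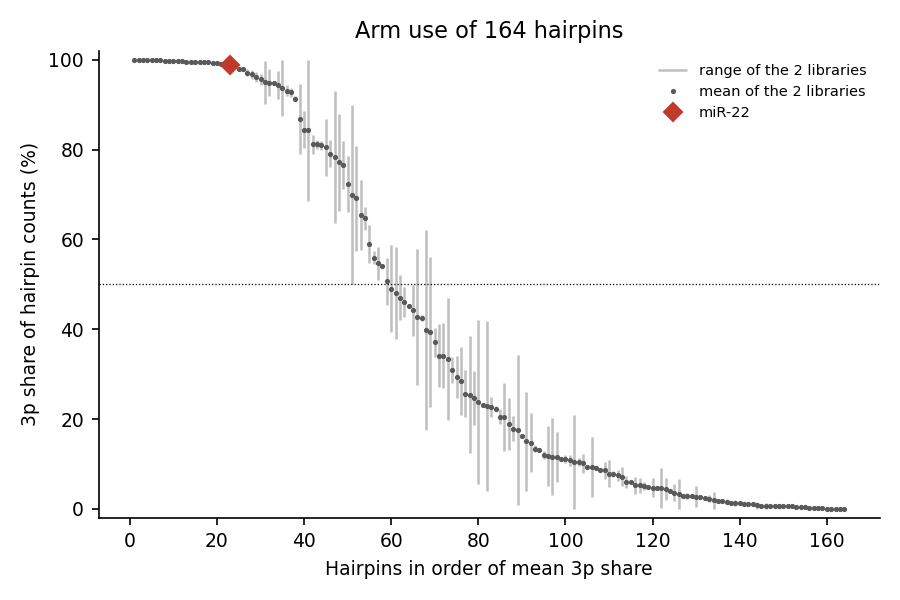
The share of a hairpin's counts that came from its 3p arm in percent (vertical) is plotted for 164 hairpins in order of that share (horizontal), with points for the mean of both libraries, grey bars for their range and a dotted line at 50%. The red diamond marks miR-22 at 98.7%, on the upper plateau, where its range is hidden by the symbol.

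Each strand was then compared between the libraries, over the 1002 names whose mean count was 10 or more. Replicate 2 over replicate 1 gave a log2 ratio of -0.01 for miR-22-3p (exact 95% interval -0.05 to 0.02, adjusted p = 0.468). For miR-22-5p it was 0.13 (-0.18 to 0.45, adjusted p = 0.472, exact binomial test with Benjamini-Hochberg adjustment). Neither strand passed the threshold of 0.05, which 70.6% of the 1002 names passed. The sign for miR-22-3p had no meaning at this size, since it turned to 0.0039 under DESeq2 size factors and to 0.0062 in a total without names numbered 2000 and above.

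Depth set how much each of these comparisons could show. At the depth of miR-22-3p small differences can be called: of the 59 names whose mean count was 10000 or more, 48 passed and 11 did not, miR-22-3p among the latter. Of the 27 other names within 1.5 times of its mean count, 22 passed, 3 had a smaller log2 ratio in size and 24 a larger one, and the median size was 0.05. For miR-22-5p the interval leaves room for a difference that would not be detectable at its depth. Among the 62 other names within 1.5 times of its mean count, the median size of the log2 ratio was 0.55, 42 passed, and 6 had a smaller ratio in size.

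**Figure D3:**
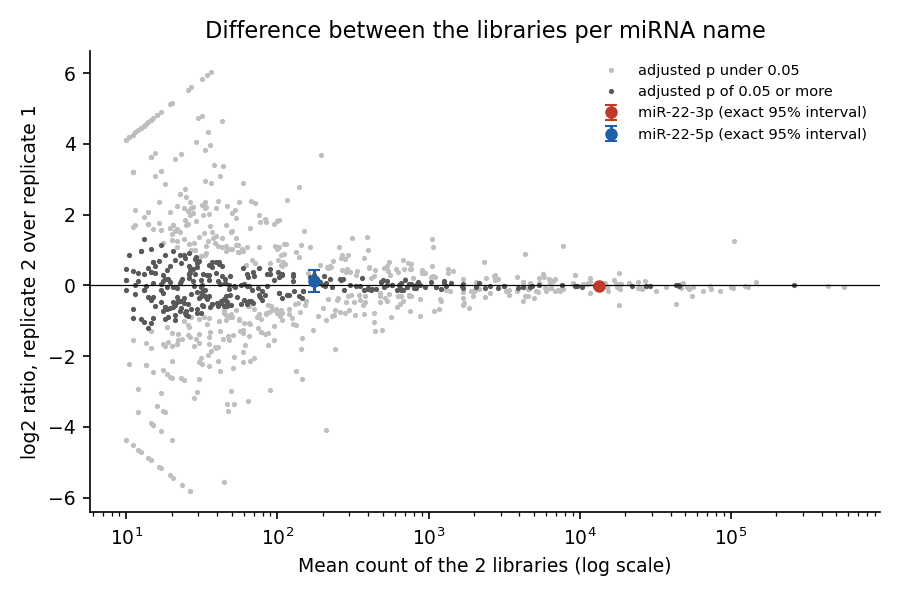
The log2 ratio of replicate 2 over replicate 1 (vertical) is plotted against the mean count (horizontal, log scale) for the names whose mean count was 10 or more and that were found in both libraries; 149 names found in 1 library only have no ratio and are not drawn. Light points passed an adjusted p of 0.05 and dark points did not, and both miR-22 strands lie near 0, at -0.01 for miR-22-3p and 0.13 for miR-22-5p, with exact 95% intervals as bars.

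Next, the levels of both strands were set in the order of all names. let-7e-5p, a strand of the let-7 family, was next above miR-22-3p with 3416 and 3436 CPM. Its counts were 1.002 times those of miR-22-3p in replicate 1 (exact 95% interval 0.978 to 1.03) and 1.02 times in replicate 2 (0.995 to 1.04), and both intervals included 1. miR-33-5p, which is made from an intron of the sterol regulator gene Srebf2, was next below with 3197 and 3166 CPM. It had 0.938 times the counts of miR-22-3p in each library, with intervals of 0.915 to 0.962 and 0.916 to 0.961. The other near neighbours were miR-200a-3p and miR-93-5p above and miR-6538 and miR-421-3p below, and none of these had a range of CPM that overlapped that of miR-22-3p.

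Around miR-22-5p the order was less settled. The CPM ranges of all 6 near neighbours overlapped its own. miR-214-3p, a miRNA of mesenchymal cells, had 6.88 CPM in replicate 1 and 88.3 CPM in replicate 2, and so stood below miR-22-5p in one library and above it in the other. miR-6951-5p did the reverse, with 62.7 and 26.0 CPM. For miR-499-5p, miR-20b-5p and miR-3068-3p the interval of the ratio to miR-22-5p included 1 in either library. miR-148b-5p lay below it in replicate 1, with 26.2 CPM, and had 55.3 CPM in replicate 2, where the interval of the ratio to miR-22-5p, 0.990 to 1.47, included 1.

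Likeness was also measured as the Euclidean distance between names over log2(CPM + 1) in the 2 libraries. With only 2 libraries this mostly reflects the level. The 5 names nearest to miR-22-3p were let-7e-5p at a distance of 0.03, miR-33-5p at 0.13, miR-200a-3p at 0.19, miR-93-5p at 0.21 and miR-30d-5p at 0.24. Of these, let-7e-5p and miR-33-5p also did not pass the test between the libraries (adjusted p = 0.674 and 0.504, exact binomial test). The 5 nearest to miR-22-5p were miR-499-5p at 0.11, miR-20b-5p at 0.14, miR-103-2-5p at 0.19, miR-3068-3p at 0.23 and miR-128-3p at 0.30.

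A list of 16 miRNAs known from epidermis and hair follicle gave the skin context. All 16 were found in both libraries. By mean CPM, 9 of them were above miR-22-3p and 7 below, and these numbers were the same in each library. Over all names, 50 were above miR-22-3p and 1426 below. The median level was 5511 CPM on the list and 4.99 CPM over all names. The list was chosen with earlier results of these data known, so no conclusion is drawn from this difference.

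The upper members were miR-31-5p, known to favour keratinocyte growth, with 142121 ± 3663 CPM, followed by miR-141-3p, miR-205-5p, miR-21a-5p, miR-23b-3p, miR-24-3p, miR-200b-3p and miR-200c-3p. miR-205-5p, a miRNA of basal keratinocytes and skin stem cells, had 9.73 ± 0.201 times the level of miR-22-3p. miR-200c-3p, which keeps cells epithelial by repressing Zeb factors, had 1.95 ± 0.0934 times. miR-203-3p, which drives keratinocytes out of the basal state, was the nearest to miR-22-3p from above. It had 4347 and 4480 CPM, or 1.30 ± 0.0369 times the level of miR-22-3p (SD, n = 2).

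The nearest from below was miR-125b-5p, a miRNA known to hold back the commitment of skin stem cells, with 1833 and 1646 CPM. It had 0.513 ± 0.0354 times the level of miR-22-3p. miR-34a-5p, which p53 induces, had 1199 and 1113 CPM, and miR-196a-5p, from the HOX clusters, had 1043 and 927 CPM. miR-34c-5p had 370 and 234 CPM, and miR-218-5p had 47.4 and 86.1 CPM. miR-184-3p had 1 and 2 counts, within the 3 counts that an unlisted name may have. The 5p strand of miR-22 stood below all list members except miR-184-3p by mean CPM, but above miR-214-3p in replicate 1.

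The list members were compared between the libraries by the same test. All 15 with a mean count of 10 or more passed, 5 higher and 10 lower in replicate 2. Over all 1002 tested names, 36.2% were called higher and 34.3% lower. For the 9 members above miR-22-3p, the log2 ratios ran from -0.11 for miR-200c-3p to 0.09 for miR-141-3p. Among them were -0.02 for miR-21a-5p, 0.04 for miR-203-3p and -0.03 for miR-23b-3p. The largest in size on the list were -0.66 for miR-34c-5p, 0.86 for miR-218-5p and 3.68 for miR-214-3p. The median log2 ratio was -0.03 on the list and -0.0048 over all tested names. No list member had a smaller log2 ratio in size than miR-22-3p, and 17 of all 1002 names did. The ratio of miR-21a-5p (-0.0166) was nearly the same as that of miR-22-3p (-0.0144). Their order was not checked under the other scalings, under some of which the ratio of miR-22-3p changed sign. The difference between the log2 ratio of miR-22-3p and those of the list members was not tested.

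**Figure D4:**
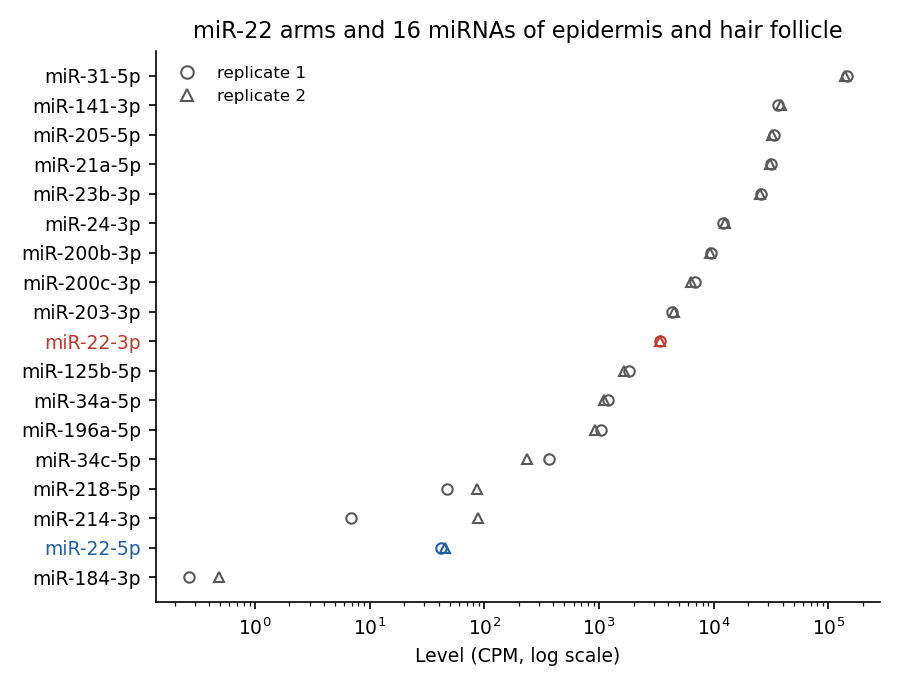
The level in CPM (horizontal, log scale) is plotted for the 16 listed miRNAs of epidermis and hair follicle and for both miR-22 strands (coloured), with a circle for replicate 1 and a triangle for replicate 2. miR-22-3p lies between miR-203-3p and miR-125b-5p, and the symbols separate visibly only for members of low level such as miR-214-3p, at 6.88 and 88.3 CPM.

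Sequence relatives of the strands were sought among 1679 mature names in RefSeq, a table in which 1231 of the 1477 counted names have a sequence. None of the names with a sequence shared bases 2 to 8 with miR-22-3p or with miR-22-5p, and the 246 counted names without one could not be compared. Bases 2 to 7 of miR-22-5p were shared by miR-6935-3p, with 1 and 2 counts, and by miR-7092-3p, with 24.1 and 29.6 CPM. No other name with a sequence shared bases 2 to 7 with miR-22-3p.

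One name, however, was nearly a copy of miR-22-3p without its first base. miR-3966, from the gene Mir3966 on another chromosome (chr10:97423493-97423513, plus strand), overlaps miR-22-3p over 21 bases with 2 mismatches. Counted from the 5′ end of miR-22-3p these are U11C and A14U, with the base of miR-22-3p first. In the lines that follow, the 7 bases of the miR-22-3p seed are in capitals in both, and in miR-3966 they begin at its first base.
miR-22-3p: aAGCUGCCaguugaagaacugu
miR-3966: AGCUGCCagcuguagaacugu

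miR-3966 had 30 counts in replicate 1 and 101 in replicate 2, or 7.94 and 24.5 CPM. These counts were 0.233% and 0.726% of the counts of miR-22-3p. It differed between the libraries, with a log2 ratio of 1.62 (exact 95% interval 1.02 to 2.26, adjusted p = 2.32e-08, exact binomial test). So did 70.6% of the 1002 tested names. How reads that match both sequences nearly as well were assigned is not given in the sources used here, so the counts of miR-3966 are uncertain. With them added, the level of miR-22-3p was 3407 CPM and its log2 ratio -0.0073.

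Both strands of miR-22 begin with A, which is less common among abundant miRNAs than U. Of the 1231 names with a sequence, 313 begin with A and 500 with U. Names beginning with A took 24.1% ± 0.0782 of the counts of these names, and names beginning with U took 64.2% ± 0.586 (SD, n = 2). Of the 117 hairpins with both arm sequences among the 164, the higher arm began with U in 63 and with A in 23. The lower arm began with U in 16 and with A in 38, and both arms began with A in 9, miR-22 among them.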

How the data were processed

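For either library the authors deposited a table of mature miRNA names and whole-number counts, without a header and not normalised. cutadapt, Novoalign and the build mm10 are named in the submitters' processing notes, without role or version. The miRNA reference, the treatment of PCR copies, of multiply matching reads and of chimeras is not given in the sources used here. Unlisted names were set to 0. Rows that name no miRNA (0.00265% and 0.000218% of counts) were left out of totals and tests.

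CPM used each library's miRNA total. Names whose mean count was 10 or more were compared between the libraries by exact two-sided binomial tests, and arm shares by exact Fisher tests. These tests had Benjamini-Hochberg adjustment over all tested names or hairpins and a threshold of 0.05. With 1 group no test between conditions was possible. The tests were tried on simulated counts whose random spread was counting error only. This does not show how they behave under the wider spread between these libraries. Alternatives used edgeR 4.0.16 and DESeq2 1.42.0 (R 4.3.3) for scaling. Other tools were Python 3.11.15, scipy 1.17.1, matplotlib 3.10.9 and RNAfold 2.7.2. Sequences came from RefSeq (GRCm38.p6).

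Named were both strands, the 3 names on either side of each in mean CPM, the 5 nearest by distance, names sharing a seed, the 3 hairpins on either side in 3p share, and the skin list. The spelling of 4 marker names was changed, after the values were seen, to that of the tables (miR-126a-3p, miR-126a-5p, miR-145a-5p and miR-1a-3p), through synonyms in the RefSeq gene table. The members and lists were chosen with earlier results of these data known. Mir22's neighbours, miR-3966, the names sharing bases 2 to 7 and the change of the arm ratio were chosen after their values were seen.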

Additional observations from a re-analysis of the deposited data

How the results depend on the processing

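Both strands kept their level within the SD under TMM factors and DESeq2 size factors. These factors scale the libraries against each other at a fixed average scale, so they could hardly move the mean of the libraries. miR-22-3p also kept its level within the SD with miR-3966 added, a setting chosen after the data were seen. Smaller totals raised the levels by construction: to 3953 and 51.1 CPM without miR-31-5p and to 3744 and 48.4 CPM without names numbered 2000 and above, for miR-22-3p and miR-22-5p. With arms summed, the miR-22 hairpin as a whole stood at place 50. The place of miR-22-3p was 38 with shared seeds summed and 46 without names numbered 2000 and above. For miR-22-5p these places were 253 and 265. The log2 ratio of miR-22-3p reversed to 0.0039 under DESeq2 size factors and to 0.0062 in a total without names numbered 2000 and above, and stayed uncalled in all settings run, as did that of miR-22-5p and the difference in arm share. The number of names that differed, 707, was 254 among names whose mean count was 100 or more, since fewer entered the test, and 441 with a 2-fold ratio also required. Leaving out each library, which with 2 libraries cannot move a mean by more than the SD, gave 3374 to 3408 CPM and 41.8 to 45.8 CPM, places 51 and 298 to 307, a 3p share of 98.66% to 98.79%, 22 to 26 hairpins with a 3p share at least that of miR-22, against 23, and 7 skin list names below miR-22-3p. No paired analysis was possible because the series has a single group. The counts of miR-22-5p limit what can be said of its difference between the libraries.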
